A study of Mus musculus with 2 samples.

Results

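The Clcn5 intronic microRNA (miRNA) cluster is a group of short hairpin genes inside Clcn5, which encodes an endosomal chloride and proton exchanger best known from the kidney. Its members were taken by gene symbol as Mir532, Mir188, Mir362, Mir501, Mir500 and Mir660. Of these 6 symbols, 5 were found among the 2202 miRNA genes listed in each file. Mir660 matched no symbol of the annotation and is not analysed here. The data are miRNA sequencing libraries of cerebral cortex, left side, from 25-day-old males of strain B6CASTF1/J, the F1 hybrid of C57BL/6J and CAST/EiJ. There was 1 group, with no treatment named, and 2 biological replicates, each a library from its own numbered male, so the comparison available was replicate 2 against replicate 1. By strain naming convention the dam is C57BL/6J, so these males would carry an X chromosome of that strain, which is also the strain of the reference genome.

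MiRNAs are cut from hairpins in longer transcripts, and either arm of a hairpin (5p or 3p) can be loaded into an Argonaute protein. The seed, bases 2 to 8 of the loaded arm, pairs with target mRNAs, which are then repressed. Hairpins within an intron can be transcribed together with the host gene. In mammals the hairpins of this cluster lie near each other in Clcn5, and several have similar sequences. In neurons miR-188 and miR-501 have been studied for their action on dendritic spines and glutamate receptors, and miR-532, miR-500 and miR-362 are better known from studies of tumours.

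All 5 hairpins lay on the minus strand of chromosome X (mm10), in the same direction as Clcn5 (7153810 to 7319358). In order of transcription they were Mir532 (ENSMUSG00000070139.1, 7248402 to 7248497), Mir188 (ENSMUSG00000065398.1, 7247989 to 7248056), Mir362 (ENSMUSG00000070100.1, 7241982 to 7242046), Mir501 (ENSMUSG00000076251.1, 7241243 to 7241351) and Mir500 (ENSMUSG00000070108.2, 7237683 to 7237774). The same intron of 103648 bases held all of them. It is intron 3 of a coding Clcn5 transcript with 15 exons and intron 2 of another with 7 exons, and no hairpin overlapped an exon. The hairpins spanned 10815 bases, with no other annotated gene between them apart from the host. Mir532 and Mir188 were 345 bases apart and Mir362 and Mir501 were 630 bases apart. A gap of 5942 bases separated these pairs, and Mir500 followed 3468 bases after Mir501.

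The mature sequences show which members could act on the same targets. For miR-532-5p no sequence was available, so it is left out of the sequence and seed comparisons. RefSeq (GRCm38.p6) gave 9 other mature arms for the 5 genes. They are written here 5′ to 3′ with the seed in capitals, in groups of like arms.
miR-362-5p: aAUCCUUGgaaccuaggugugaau
miR-500-5p: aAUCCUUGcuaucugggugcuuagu
miR-501-5p: aAUCCUUUgucccugggugaaa
miR-188-5p: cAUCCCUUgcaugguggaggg
miR-501-3p: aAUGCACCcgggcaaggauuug
miR-500-3p: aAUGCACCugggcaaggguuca
miR-362-3p: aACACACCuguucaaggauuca
miR-188-3p: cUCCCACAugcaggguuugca
miR-532-3p: cCUCCCACacccaaggcuugca

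A shared seed linked miR-362-5p to miR-500-5p, and another linked miR-501-3p to miR-500-3p. The seed of miR-501-5p departed from the first of these in its last base. Among the same arms of Mir362, Mir501 and Mir500, 15 to 18 positions were identical when aligned at the 5′ end (6 pairs), against 4 to 11 positions in the other 30 pairs. The pair miR-501-3p and miR-500-3p had 18 of 22 positions identical. MiR-188-3p and miR-532-3p shared the run CUCCCACA, shifted by a base, so their seeds were not the same. Outside the cluster, the seed of miR-188-5p was also that of miR-7061-3p, and the seed of miR-362-3p was also that of miR-329-3p. No other mature miRNA of the RefSeq table held a seed of these 9 arms.

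**Figure D1:**
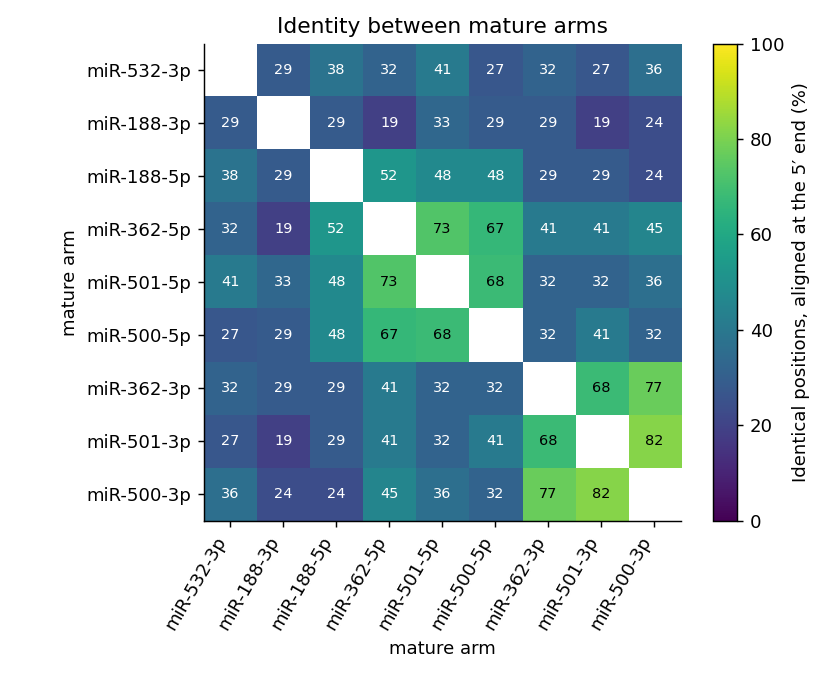
Percentage of identical positions between each pair of mature arms, aligned ungapped at the 5′ end over the length of the shorter arm. The same arms of Mir362, Mir501 and Mir500 form the bright blocks, with 15 to 18 identical positions against 4 to 11 elsewhere.

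Among the members, the longest run of bases shared along the hairpin was that of Mir501 and Mir500. The hairpins of Mir501 and Mir500 are printed because this pair shares a seed but differed in level; mature arms are in capitals.
Mir501: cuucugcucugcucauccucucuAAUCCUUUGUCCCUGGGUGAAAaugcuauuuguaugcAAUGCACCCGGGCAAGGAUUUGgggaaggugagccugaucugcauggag
Mir500: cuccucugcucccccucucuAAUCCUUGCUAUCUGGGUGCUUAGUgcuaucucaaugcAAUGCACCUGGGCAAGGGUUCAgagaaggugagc

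The longest run of bases these hairpins shared was 14, across the start of the 5p arm. The hairpins of Mir532 and Mir188 shared a run of 10 bases, and Mir362 shared at most 8 with another member. With any hairpin outside the cluster, on either strand, the longest shared run was 13 bases for Mir532, 12 for Mir188 and Mir500, 11 for Mir362 and 10 for Mir501. These runs were shorter than a mature miRNA. They were searched among the 1005 mouse hairpins of the RefSeq table only. This bears on the counts because the files left multimapping reads unassigned, and these made up 52.8% of the mapped reads of replicate 2 and 48.6% of those of replicate 1. Predicted folding energies (RNAfold) were −46.9 kcal/mol for Mir501, −41.9 for Mir500, −33.2 for Mir532, −28.8 for Mir188 and −28.5 for Mir362. Per base, the hairpin of Mir532 was the weakest of the 5 at −0.346 kcal/mol and that of Mir500 the strongest at −0.455, around a median of −0.406 over all RefSeq hairpins. Mir501 came first and Mir362 last both in folding energy and in the mean read levels given next, while the order of the others differed. A relation between folding energy and level was not tested.

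Levels are counts per 1000000 (CPM) of the counts on the genes' own strand, which numbered 4447390 in replicate 2 and 2388379 in replicate 1. A count of 3 corresponded to 0.675 CPM for replicate 2 and to 1.26 CPM for replicate 1. A read covers a whole mature miRNA, so hairpin length does not enter these levels, but reads of both arms are summed. Intervals are 95% exact intervals and describe counting error alone, because PCR copies were not told apart by molecular identifiers. In bulk tissue, fewer cells of a type and less RNA per cell cannot be told apart.

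The cluster was led by Mir501 and Mir532, with Mir188 and Mir500 several-fold lower and Mir362 lowest. Mir501 had 2674 counts in replicate 2 and 2656 in replicate 1, or 601 CPM (579 to 624) and 1112 CPM (1070.2 to 1155), a mean of 857 ± 361 CPM (SD, n = 2). Mir532 had 3442 counts in replicate 2 and 2012 in replicate 1, or 774 CPM (748 to 800.2) and 842 CPM (806 to 880.05), a mean of 808 ± 48.4 CPM (SD, n = 2). Their means differed by less than the SD of Mir501, and their order was opposite in the libraries, with Mir532 ahead in replicate 2 and Mir501 ahead in replicate 1. These levels placed Mir532 at rank 116 and Mir501 at rank 129 of all genes in replicate 2, and at ranks 109 and 99 in replicate 1.

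Mir188 had 1033 counts in replicate 2 and 348 in replicate 1, at 232 CPM (218 to 247) and 146 CPM (131 to 162). Its mean was 189 ± 61.2 CPM (SD, n = 2). Mir500 had 644 counts in replicate 2 and 368 in replicate 1, at 145 CPM (134 to 156) and 154 CPM (139 to 171), a mean of 149 ± 6.56 CPM (SD, n = 2). Mir188 stood above Mir500 in replicate 2, while in replicate 1 they were within counting error of each other. Mir362 had 136 counts in replicate 2 and 76 in replicate 1, at 30.6 CPM (25.7 to 36.2) and 31.8 CPM (25.1 to 39.8). Mir362 was the lowest member in both libraries, and its intervals overlapped. All 5 genes thus reached 10 counts in both libraries, and the members' median of 189 CPM compares with 121 CPM over the 392 genes that reached this count. The strand opposite to the hairpins held 0 counts at all 5 genes in both libraries.

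**Figure D2:**
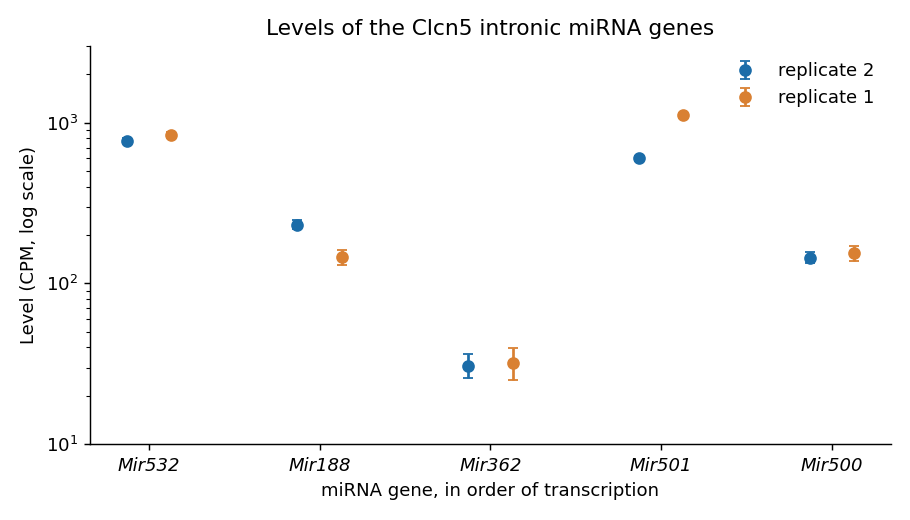
Level of each gene (CPM, log axis) in replicate 2 and replicate 1, with 95% exact Poisson intervals for counting error. Mir501 and Mir188 are apart between the libraries, in opposite directions, while Mir362 and Mir500 have overlapping intervals.

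Level did not follow position. Along the direction of transcription the mean levels were 808, 189, 31.2, 857 and 149 CPM, so each of the closest pairs joined a high and a low member. For each count of Mir188 there were 3.33 counts of its neighbour Mir532 in replicate 2 (exact binomial interval 3.11 to 3.58) and 5.78 in replicate 1 (5.16 to 6.50). For each count of Mir362 there were 19.7 counts of its neighbour Mir501 in replicate 2 (16.5 to 23.5) and 34.9 in replicate 1 (27.8 to 44.5). Mir501 and Mir500, which share the seed of their 3p arms, stood at 4.15 to 1 in replicate 2 (3.81 to 4.53) and 7.22 to 1 in replicate 1 (6.47 to 8.07). The files do not separate 5p from 3p reads, so the arm behind each level is unknown.

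**Figure D3:**
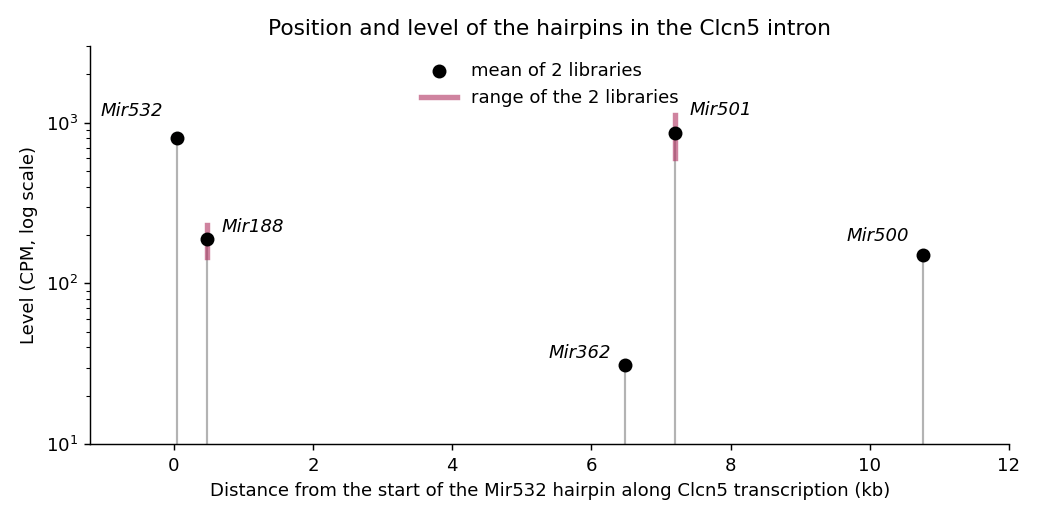
Mean level (CPM, log axis) of each hairpin against its distance in kilobases from the start of the Mir532 hairpin, along the direction of Clcn5 transcription. Vertical bars give the range of the 2 libraries; in both close pairs a high member lies beside a low one.

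Between the libraries, Mir188 was higher and Mir501 and Mir532 were lower in replicate 2, while Mir500 and Mir362 did not pass the test. Each gene was tested with a two-sided exact binomial test given the library totals, and p-values were adjusted by Benjamini-Hochberg over the 392 genes that reached 10 counts in both libraries. It passed 3 of the 5 members at an adjusted p of 0.05, 1 higher and 2 lower. Of all genes tested, 56.9% passed, 34.2% higher and 22.7% lower in replicate 2, so the members' share was close to the background. The test compares these libraries, not conditions, and it takes counting error as the only error.

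Mir501 moved furthest of the members, with a log2 ratio (replicate 2 over replicate 1) of −0.89 and a counting SE of 0.040 (adjusted p = 7.74e-109, exact binomial test). Its level in replicate 2 was 0.541 of that in replicate 1 (interval 0.512 to 0.571). Mir188 had a log2 ratio of 0.67 with a counting SE of 0.089, or 1.59-fold (1.41 to 1.81; adjusted p = 3.00e-14, exact binomial test). Mir532 passed with a small log2 ratio of −0.12 and a counting SE of 0.040 (adjusted p = 0.00516, exact binomial test). The log2 ratios of Mir500 and Mir362 were −0.09 and −0.06, with adjusted p of 0.448 and 0.838 in the exact test. Their ratios of 0.940 (0.826 to 1.07) and 0.961 (0.721 to 1.29) left room for changes of these sizes in either direction.

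The members' median log2 ratio was −0.09, against 0.06 over all genes tested. Differences past 1.5-fold were found for Mir501 and Mir188, against 27.6% of the genes tested. The size of the log2 ratio of Mir501 exceeded that of 84.4% of the genes tested, and that of Mir188 exceeded 76.0%. The spread among all genes put the biological coefficient of variation at 0.311 (edgeR, both libraries as 1 group). With that spread in edgeR's exact test, 0 of the 5 members passed and 0 had an unadjusted p under 0.05, with 0.172 for Mir501 and 0.304 for Mir188. That test passed 0.765% of the genes tested, 3 genes, and it takes its spread from the pair of libraries it compares. The differences of Mir501, Mir188 and Mir532 were thus larger than counting error, but none passed once the general spread between these libraries was allowed for. Those of Mir500 and Mir362 did not exceed counting error.

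**Figure D4:**
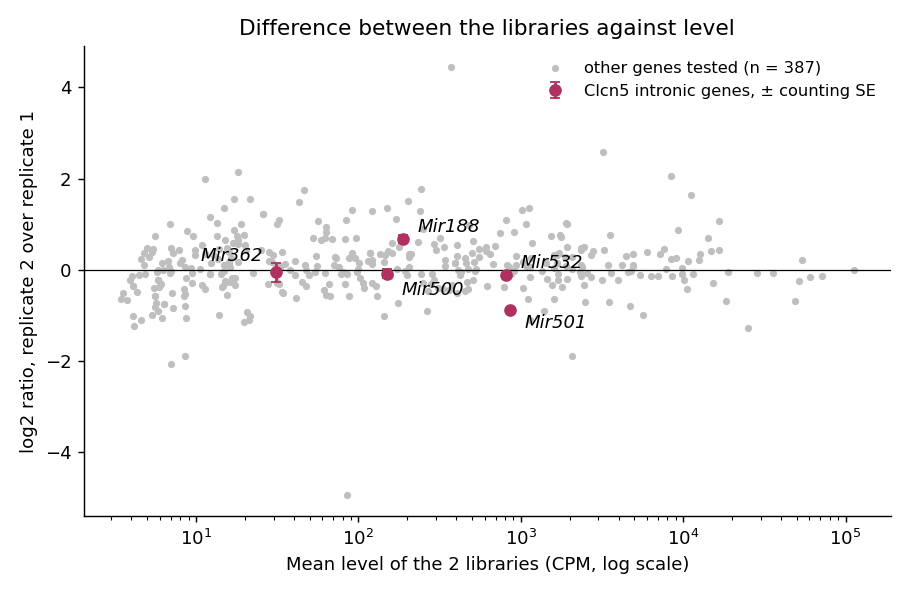
log2 ratio of replicate 2 over replicate 1 against mean level (CPM, log axis) for the 392 genes tested, with the 5 members marked and bars of 1 counting SE. Mir188 lies above 0 and Mir501 below it, both inside the cloud of other genes.

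Added up, the cluster held 7929 counts in replicate 2 and 5460 in replicate 1. These were 1783 and 2286 CPM, or 0.178% and 0.229% of own-strand counts, with exact Clopper-Pearson intervals of 0.174 to 0.182% and 0.223 to 0.235%. The mean was 2034 ± 356 CPM (SD, n = 2), and the sum in replicate 2 was 0.780 of that in replicate 1 (exact binomial interval 0.753 to 0.807). Sums without a member were chosen after the values were seen. Without Mir501 the remaining 4 genes held 5255 counts in replicate 2 and 2804 in replicate 1, a ratio of 1.01 (0.961 to 1.05), in which Mir188 was higher and Mir532 lower in replicate 2. That ratio was 0.887 (0.847 to 0.929) when totals left out the 10 most abundant genes. Without each of the other members in turn the ratio was 0.699 to 0.777, lowest without Mir532 and 0.724 without Mir188.

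The make-up of the cluster therefore differed between the libraries. Mir501 supplied 33.7% of the cluster in replicate 2 and 48.6% in replicate 1, with exact Clopper-Pearson intervals of 32.7 to 34.8% and 47.3 to 49.98%. Mir532 supplied 43.4% in replicate 2 (42.3 to 44.5%) and 36.8% in replicate 1 (35.6 to 38.1%). Mir188 supplied 13.0% in replicate 2 (12.3 to 13.8%) and 6.37% in replicate 1 (5.74 to 7.05%). Mir500 gave 8.12% and 6.74%, and Mir362 gave 1.72% and 1.39%, in replicates 2 and 1. These shares do not depend on the library totals.

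Of the 10 pairs of members, 7 had a count ratio whose exact intervals did not overlap between the libraries, all of them pairs with Mir501 or Mir188. These pairs are not independent, and their share was not compared with that over all gene pairs. Among single genes, 56.9% of those tested passed the exact binomial test between the libraries. The widest shift was that of Mir501 over Mir188, at 2.59 in replicate 2 (2.41 to 2.78) and 7.63 in replicate 1 (6.82 to 8.56). The 3 pairs with overlapping intervals were those among Mir532, Mir500 and Mir362, which kept their proportions within counting error. Mir532 over Mir500, for example, was 5.34 in replicate 2 (4.91 to 5.82) and 5.47 in replicate 1 (4.89 to 6.13).

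**Figure D5:**
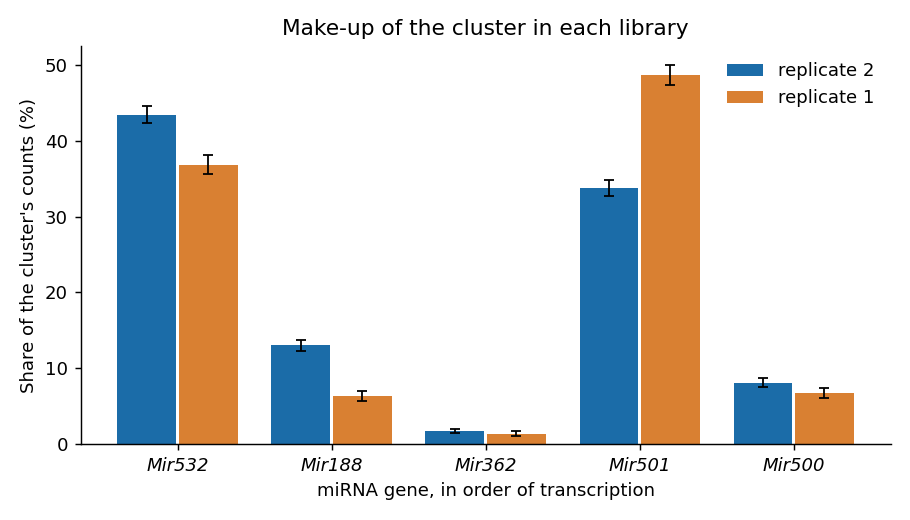
Share of the summed counts of the cluster (%) supplied by each gene in replicate 2 and replicate 1, with 95% exact Clopper-Pearson intervals. Mir501 takes 33.7% in replicate 2 and 48.6% in replicate 1, and Mir188 takes 13.0% and 6.37%.

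Genes outside the cluster with a seed of the 9 listed arms were few, and the seed of miR-532-5p was not searched. Mir329, whose 3p arm has the seed of miR-362-3p, was at 608 CPM in replicate 2, against 498 CPM in replicate 1, well above Mir362 in both. Mir7061, whose 3p arm has the seed of miR-188-5p, had 7 counts in replicate 2 and 5 in replicate 1, at 1.57 and 2.09 CPM. Mir501 had the highest mean level of the members, though Mir532 was higher in replicate 2. By Euclidean distance of log2(CPM + 1) over the 2 libraries, the genes nearest to Mir501 were Mir187 (distance 0.371), Mir17 (0.525) and Mir31 (0.547). Mir187 had 683 CPM in replicate 2, against 889 CPM in replicate 1. Nearness over 2 libraries reflects level far more than pattern.

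Among the 142 miRNA genes of chromosome X, the cluster supplied 5.32% of the X-linked counts in replicate 2 and 5.62% in replicate 1. Its most abundant members, Mir532 and Mir501, ranked 9 and 10 of the X-linked genes in replicate 2, and 10 and 8 in replicate 1. The other 137 X-linked genes, which include Mir221 and Mir222, summed to 0.826 of their replicate 1 level in replicate 2 (0.819 to 0.833). The cluster's ratio was 0.780, with a separate interval. Another intronic group on X, in the serotonin receptor gene Htr2c, had 5 listed genes and summed to 453 CPM in replicate 2, against 158 CPM in replicate 1. The cluster's sum was thus 3.94 times that group's in replicate 2 and 14.5 times in replicate 1, as the Htr2c group was 2.87-fold higher (2.57 to 3.21) in replicate 2. Mir1298 supplied most of that sum, at 374 CPM in replicate 2, against 110.1 CPM in replicate 1. The other 4 genes summed to 78.2 CPM in replicate 2, against 47.7 CPM in replicate 1, a ratio of 1.64 (1.32 to 2.04). Most of that difference came from Mir1264, at 36.4 CPM in replicate 2, against 15.5 CPM in replicate 1. Mir448 and Mir764 did not pass the exact binomial test, and Mir1912 had too few counts to be tested. Mir221 with Mir222 summed to 4292 CPM in replicate 2, against 9219 CPM in replicate 1, a ratio of 0.466 (0.457 to 0.475). That pair lowered the ratio of the 137 other X-linked genes, whose sum without it was not taken.

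The neuron-enriched miRNAs chosen to check the tissue label had counts at 11 of 11 genes. Only 8 of them reached the count minimum for testing in both libraries, and Mir124a-1, Mir124a-2 and Mir124a-3 did not. Multimapping reads were left unassigned, so miRNAs with several gene copies can be undercounted in this list and those below. How far this lowered Mir124a was not tested. All 11 summed to 74978 CPM in replicate 2, against 87827 CPM in replicate 1. Mir132 carried that difference, at 37793 CPM in replicate 2, against 60392 CPM in replicate 1. By the exact binomial test, 4 of the 8 neuron genes tested were higher and 2 lower in replicate 2. Kidney miRNAs, of interest because Clcn5 is high in kidney, had counts at 5 of 6 genes and summed to 771 and 545 CPM, mostly from Mir204, which brain also expresses. The liver miRNA Mir122 stood at 57.6 and 54.0 CPM, and the 8 heart and muscle genes at 43.8 and 34.8 CPM, in replicates 2 and 1. The sums of some cell type lists differed between the libraries, each through a leading gene. Endothelial and mural genes (3 of 3 detected) summed to 28009 CPM in replicate 2, against 16755 CPM in replicate 1. Of these, Mir126a was higher in replicate 2 (log2 ratio 1.06) and Mir143 and Mir145a were lower (−0.11 and −0.22), all past the exact binomial test. Oligodendrocyte genes (3 of 3) summed to 3556 and 2726 CPM, where Mir219a-2 passed (log2 ratio 0.72) and Mir338 and Mir219a-1 did not (−0.03 and −0.75). Microglial and white blood cell genes (4 of 4) were at 1639 and 1513 CPM, and red-cell genes (3 of 3) at 144 and 134 CPM. Replicate 2 also had 1.86 times as many own-strand counts. The part of cell make-up or depth in the shifts of Mir501 and Mir188 was not tested.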

How the data were processed

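Per the readme files, the authors assigned reads to GENCODE M21 miRNA genes on mm10; aligner and counter: not given in the sources used here. Deposited values are raw counts in 3 columns without header, read from their values as both strands, own strand and opposite strand; own-strand counts were used. Entries that name no gene stayed out of totals: 18.2% and 31.6% of reads were unmapped in replicates 2 and 1, and 6.91% and 7.36% of mapped reads fell in no feature. All 2202 identifiers matched the annotation. Over 761 genes with a count the libraries differed beyond sampling noise (chi-square 176676, 760 degrees of freedom) and were kept as 2 samples. With 1 library on each side, edgeR's quasi-likelihood test has no residual degrees of freedom, so an exact conditional binomial test was used. It was tried on simulated counts with counting error alone. Such counts cannot show how it behaves with the wider spread between these libraries. edgeR 4.0.16 and DESeq2 1.42.0 (R 4.3.3) gave alternative scalings, and RNAfold 2.7.2 the folding energies. Other steps ran in Python 3.11.15 with pandas 2.3.3, NumPy 2.4.6, SciPy 1.17.1 and, for plots, matplotlib 3.10.9. Members, lists and tests were chosen with earlier results of these data known. Named are all members, the 3 genes nearest in level to the member with the highest mean, the compared X-linked sets and genes that share a seed. Alternatives changed the scaling (TMM, DESeq2 size factors, totals without the 10 most abundant genes, mapped reads), the strand column, the count minimum (1 and 100), the test, the pseudocount (1 and 0.1) and the libraries used.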

Additional observations from a re-analysis of the deposited data

How the results depend on the processing

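The 3 members past the exact binomial test were also 3 with TMM factors, DESeq2 size factors, both strands together and count minimums of 1 and 100. They were 4 with totals without the 10 most abundant genes, where Mir500 passed at a log2 ratio of −0.27 (adjusted p = 0.00777, exact binomial test; 0.160 to 0.594 in its other binomial fits), and 0 with edgeR's exact test, which called 3 genes in all, against 223. No member's log2 ratio changed sign under any of these or a pseudocount of 1 or 0.1; at a count minimum of 100 Mir362 was not tested. Leaving the 10 most abundant genes out of the totals shifted the log2 ratios of all genes by −0.18, and 42.4% of calls were then higher in replicate 2, against 60.1%. The summed ratio of 0.780 became 0.749 with TMM, 0.745 with DESeq2 size factors and 0.687 without the 10 most abundant genes, and it turned to 1.01 without Mir501. Without Mir501 it was 0.967 with TMM, 0.961 with DESeq2 size factors and 0.887 without the 10 most abundant genes; it was 0.699 without Mir532 and 0.724 without Mir188. Sums without a member were chosen after seeing the data. The cluster's level of 2034 CPM became 4186 CPM without the 10 most abundant genes and 863 CPM per mapped read, and ranged over 1783 to 2286 CPM when a library was left out. Depth limits Mir362 most, with 136 and 76 counts in replicates 2 and 1.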
